A study of Mus musculus with 11 samples.

Results

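The genes described here are the nuclear-encoded genes of oxidative phosphorylation (OXPHOS) in mouse liver, that is, the subunits of respiratory complexes I to IV and of the ATP synthase (complex V), cytochrome c, and the complex I assembly factors whose names start with Nduf. Members were chosen by symbol alone: names that start with Nduf, Uqcr, Atp5 or Cox4 to Cox8, together with Sdha, Sdhb, Sdhc, Sdhd, Cyc1 and Cycs. Of 36788 rows of the expression table, 106 carried such a name, 7 of them were left out as named pseudogenes (-ps), and 99 members remained. By their annotation, 95 of these were protein coding and 4 were pseudogenes (Ndufb4c, Cox6c2, Ndufs6b and Ndufa11b). The 13 mitochondrially encoded subunits were not analysed here.

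In oxidative phosphorylation, complexes I and II pass electrons from NADH and succinate to ubiquinone, complex III passes them on to cytochrome c, and complex IV passes them to oxygen. Complexes I, III and IV pump protons across the inner mitochondrial membrane, and complex V uses the gradient to make ATP. Hepatocytes are rich in mitochondria, and OXPHOS mRNAs are among the abundant mRNAs of the liver.

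The samples were livers of wild-type C57BL/6 female mice older than 12 weeks. The methods of the study, however, describe all of its mice as having a mixed background that includes C57BL/6. All mice were ovariectomized (OVX) and fed a high-fat diet (HFD), so neither the surgery nor the diet differed between the groups. Mice of the FSH group received daily injections of follicle-stimulating hormone (n = 5, numbered 1, 2, 3, 4 and 6), and mice of the OVX group received saline (n = 6, numbered 1 to 6). No intact mice and no mice on a control diet were analysed here, and the comparison is therefore that of FSH with saline in ovariectomized, fat-fed females.

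Each library held between 10801891 and 19909327 reads on genes, and a count of 3 reads, the limit that an observed 0 allows, was between 0.151 and 0.278 CPM (reads of a gene per 1000000 reads on genes). The differences given are FSH minus OVX in mean log2(CPM + 0.5), tested with limma over the 12733 genes that averaged 0.5 CPM or more and adjusted over all of them. A gene is called when this adjusted p is under 0.05. Of all genes tested, 788 were higher with FSH (6.19%) and 562 were lower (4.41%), and the median difference was 0.02. All 8 hepatocyte markers were detected, and their summed level was 103808 to 122196 CPM with FSH and 99925 to 124826 CPM with saline.

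OXPHOS mRNAs were abundant in the livers of both groups, and their levels differed more between members than between groups. Of the 99 members, 90 reached the mean of 0.5 CPM. Per kilobase of transcript, the median tested member stood at 193 CPM, and the medians of complexes III (372), V (382) and IV (457) were above those of the complex I core subunits (154), the complex I accessory subunits (177) and complex II (169). The complex I assembly factors, which help to build the enzyme and are not part of it, had a median of only 12.0 CPM per kilobase. The highest member was Uqcrq, a small complex III subunit, with 1199 ± 135 CPM per kilobase with FSH (SD, n = 5) and 1161 ± 189.7 with saline (SD, n = 6). Ndufa4, first described in complex I and now placed in complex IV, followed with 1046 ± 131 and 973 ± 97.2 CPM per kilobase. Cox4i1 of complex IV had 964 ± 111 and 929.7 ± 136, and Atp5g3 of the membrane ring of complex V had 1006 ± 102 and 887 ± 127 CPM per kilobase. Between neighbours among these 4 members, the ranges of mean ± SD overlapped in both groups.

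**Figure D1:**
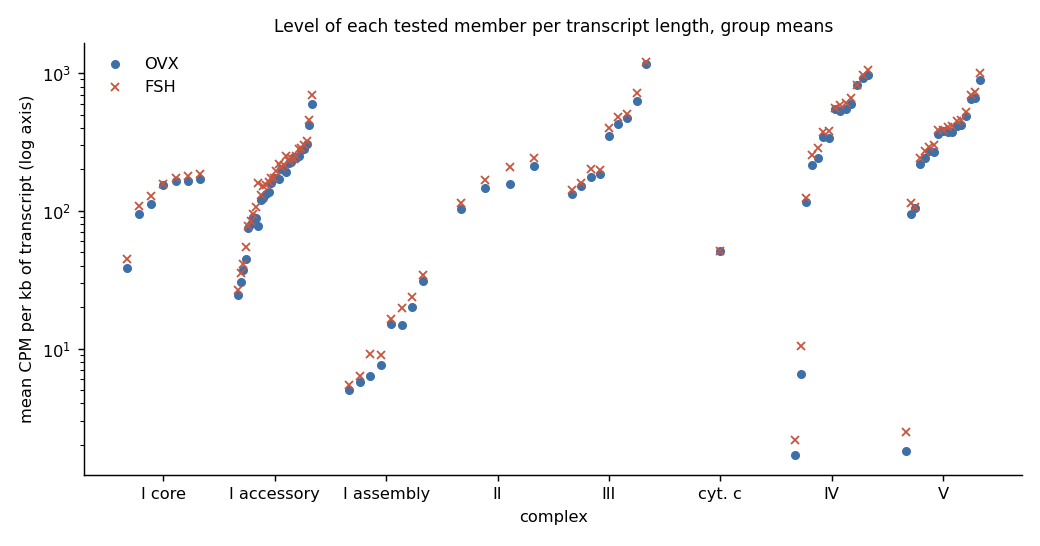
Mean CPM per kilobase of transcript (log axis) of each tested member in OVX (blue circles) and FSH (red crosses), by complex and ordered within it. The assembly factors of complex I sit between 5.20 and 32.5, far below most subunits, and only Ndufa4l2 (1.91) and Atp5s (2.10) lie lower.

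Between the groups, OXPHOS mRNAs differed little, and nearly all fitted differences had the same sign. Of the 90 members tested, 6 were higher with FSH (6.67%, beside 6.19% of all genes tested) and 0 were lower. The 6 were Sdhd, a membrane subunit of complex II, the complex I assembly factors Ndufaf4 and Ndufaf6, and the complex I accessory subunits Ndufb8, Ndufc2 and Ndufs5. No member passed the fold threshold of the study (an absolute log2 difference over 1) together with the adjusted p in limma's test, beside 1.83% of all genes, although Ndufs5 passed both in edgeR (adjusted p = 0.0293) and in limma's test without FSH1 (1.10), FSH2 (1.14) or OVX5 (1.01). At an unadjusted p under 0.05, 21 members were higher (23.3%, beside 14.6% of all genes) and 0 were lower, and edgeR and voom called 0 members lower as well. The 21 depended on the setting. It was 11 with median-of-ratios scaling and 11 in edgeR's test (12.2%, beside 13.1% of all genes in both). Upper-quartile scaling gave 12 (13.3%, beside 13.7%), quantile normalization 15 (16.7%, beside 13.8%) and no intensity trend 13 (14.4%, beside 14.3%). With voom 21 were higher (23.3%, beside 14.9%), and with array weights 29 (32.2%, beside 16.6%). The correction for GC content and transcript length described below gave 21 (23.3%, beside 15.5%). Leaving out single libraries gave 11 without FSH3 (12.2%, beside 13.1% of all genes) and 12 without FSH1 or FSH4 (13.3%, beside 12.1% in both). It gave 13 without OVX2 or OVX6 (14.4%, beside 13.7% and 14.6%) and up to 27 without OVX1 (30.0%, beside 13.9%). The number called depended on single livers: it was 1 (Sdhd) without FSH3 or FSH4 (1.11%, beside 4.03% and 4.01% of all genes), 2 without OVX6 (2.22%, beside 5.44%), 3 without OVX2 (3.33%, beside 5.42%) and 9 without FSH6 (10%, beside 8.16%). The share of all genes called higher thus moved as well. The fitted difference was above 0 for 89 members (98.9%) and for 54.0% of all genes, and only Ndufa1, an accessory subunit of complex I, had a difference below 0 (-0.05). The median difference of the members was 0.14 on the log2 scale and their range was -0.05 to 0.91. The 95% interval of the difference lay within a 2-fold change in either direction for 88 members.

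**Figure D2:**
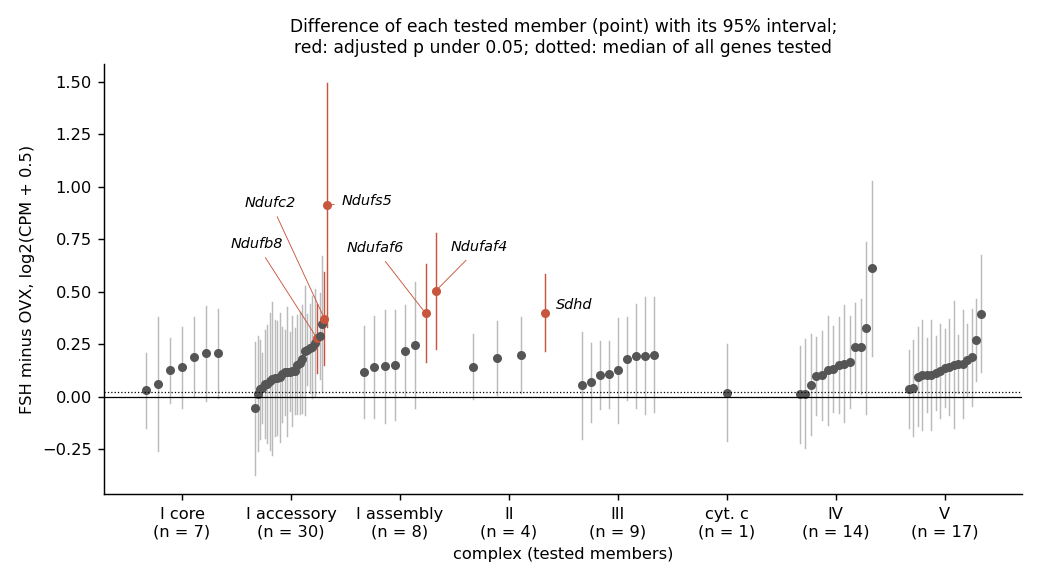
Difference of each tested member (FSH minus OVX, log2(CPM + 0.5)) by complex, with its 95% interval from limma; members with an adjusted p under 0.05 are red and named, and the dotted line is the median of all genes tested (0.02). Nearly all points lie between 0 and 0.40, and only Ndufs5, Cox7a1 and Ndufaf4 lie above 0.50.

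The median differences by complex lay between 0.12 and 0.19 before any correction for transcript length. They were 0.14 for the 7 core subunits of complex I, 0.12 for its 30 tested accessory subunits and 0.19 for its 8 assembly factors. Complex II had a median of 0.19 (4 genes), complex III of 0.13 (9 genes), complex IV of 0.14 (14 genes) and complex V of 0.14 (17 genes). Single libraries moved some of these: the accessory subunits of complex I had a median of 0.07 without OVX6 and 0.20 without FSH2, and complex III had 0.20 without OVX1. After the correction for GC content and transcript length described with the libraries, the medians were 0.10 for the complex I core, 0.05 for its accessory subunits and 0.11 for its assembly factors. They were then 0.18 for complex II, 0.07 for complex III, 0.04 for complex IV and 0.06 for complex V. In limma's test, calls were made for 3 accessory subunits (10%) and 2 assembly factors (25%) of complex I and for 1 gene of complex II (25%). The share of all genes called higher was 6.19%. There were 0 calls in the complex I core, cytochrome c and complexes III, IV and V. Other settings did call genes of complexes IV and V: Atp5g1 with the correction for GC content and length, Cox7a1 with voom, Atp5s with no intensity trend, and all 3 with array weights. At an unadjusted p under 0.05, these were 3 genes of complex IV (21.4%), 4 of complex V (23.5%, beside 14.6% of all genes) and 0 of the complex I core, cytochrome c and complex III. With edgeR, 4 members were called (Sdhd, Ndufaf4, Ndufs5 and Ndufaf6), which is 4.44%, beside 5.88% of all genes called higher.

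The members moved together from library to library, and much of this movement ran within the groups. The mean deviation of the 90 members from their gene means was 0.08, -0.10, 0.24, 0.17 and 0.06 (log2) in FSH1, FSH2, FSH3, FSH4 and FSH6. It was -0.27 in the lowest OVX library, -0.01 at the median and 0.08 in the highest. The groups overlapped, with FSH2 below 4 of the 6 OVX libraries. OVX6 was the lowest library for 35 members and OVX2 for 33, and FSH3 was the highest for 43. Over all genes tested, OVX6 was the lowest library for 6.68% of genes, OVX2 for 9.51%, and FSH3 was the highest for 9.82%.

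OXPHOS transcripts are short (median 772.5 nt, beside 2605.5 nt for all genes tested), and short transcripts as a class differed between these libraries. The median deviation of the 1279 tested genes under 1000 nt minus that of the 5132 genes over 3000 nt was -0.23 (log2) in FSH2, -0.30 in OVX2 and -0.31 in OVX6, the same 3 libraries in which the members were low. It was between 0.02 and 0.23 in the other libraries. After the values of each library were corrected for GC content and transcript length, the median difference of the members was 0.07 in place of 0.14, 75 of 90 differences were above 0 and 5 members were called (5.56%, beside 7.06% of all genes called higher). These were Sdhd, Ndufb8, Ndufaf4, Ndufs5 and Atp5g1, whereas Ndufaf6 (limma adjusted p = 0.0536) and Ndufc2 (limma adjusted p = 0.0612) no longer passed. Without FSH2, OVX2 and OVX6, which were left out after the data had been seen, the median was 0.09, 80 differences were above 0 and 2 members, Sdhd and Ndufs5, were called (2.22%, beside 3.77% of all genes called higher). The part of transcript length and RNA quality in the common shift was not tested beyond these values.

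Other gene families were measured in the same libraries. The 82 tested cytosolic ribosomal protein genes, whose transcripts are as short (median 775.8 nt), had a median difference of -0.04, with 0 called in either direction by limma or edgeR, 1 at an unadjusted p under 0.05 and 34.1% of differences above 0. Their library means were also low in FSH2 (-0.23), OVX2 (-0.13) and OVX6 (-0.15) and were highest in OVX1 (0.18). The 77 mitochondrial ribosomal protein genes had a median of 0.12, and 77.9% of their differences were above 0. In limma's test 4 were higher (5.19%, beside 6.19% of all genes), in edgeR's 3, and 0 were lower in either. At an unadjusted p under 0.05, 14 were higher and 1 was lower. The 38 proteasome subunit genes had a median of 0.04, with 3 higher (7.89%, beside 6.19% of all genes) and 1 lower. Whether the members differed from these families was not tested.

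**Figure D3:**
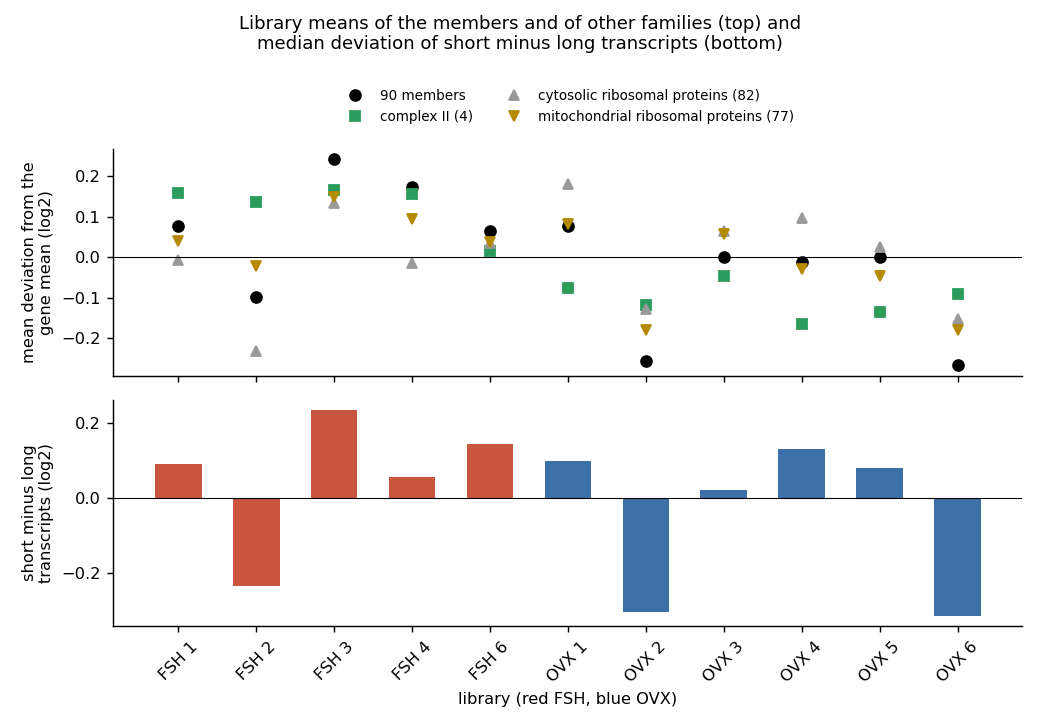
Top, mean log2 deviation from the gene mean in each library for the 90 members, the 4 genes of complex II and 2 ribosomal protein families; bottom, median deviation of short (under 1000 nt) minus long (over 3000 nt) transcripts in the same libraries. FSH2, OVX2 and OVX6 are low in both panels for the members, whereas the 4 genes of complex II stay above 0 in FSH2 (0.14) and all FSH libraries lie above all OVX libraries.

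Complex II, succinate dehydrogenase, is the only respiratory enzyme that also works in the TCA cycle, and all of its 4 subunits are nuclear-encoded. Its mean deviation was between 0.02 and 0.17 in the FSH libraries and between -0.17 and -0.05 in the OVX libraries, with no overlap. FSH2, where the 90 members together averaged -0.10, stood at 0.14 for complex II, and FSH6 was the lowest FSH library at 0.02. After the correction for GC content and transcript length, the FSH libraries lay between -0.01 and 0.18 and the OVX libraries between -0.19 and -0.03, again with no overlap. The median difference of the 4 genes was then 0.18, beside 0.19 before it. Whether complex II differed from the other complexes was not tested.

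Sdhd, which encodes a membrane anchor subunit that binds heme and ubiquinone, lies on the minus strand at chr9:50596357-50603812 of GRCm38. It had 278, 277, 275, 250.5 and 208 CPM in FSH1, FSH2, FSH3, FSH4 and FSH6, and 183, 194 and 202 CPM as the lowest, median and highest OVX values. All FSH livers were above all OVX livers, FSH6 by the least. The difference was 0.40 ± 0.086 (SE), with a limma adjusted p of 0.00811 and an exact permutation p of 0.00216 (two-sided, the smallest that the 462 splits can give). It was called without each of the 11 libraries in turn, with differences from 0.37 to 0.48.

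The other subunits of complex II had smaller differences that did not pass the test. Sdha, the flavoprotein that oxidizes succinate, had 493, 515, 474, 480.1 and 461 CPM with FSH and 376, 425 and 489 CPM as lowest, median and highest with saline (difference 0.19, limma adjusted p = 0.173). Sdhb, the iron-sulphur subunit, had 272, 239, 287, 306 and 274 CPM with FSH and 211, 244 and 263 CPM with saline (difference 0.20, limma adjusted p = 0.156). Sdhc, the other membrane anchor, had 226, 234, 230.2, 228 and 216 CPM with FSH and 188, 209 and 219 CPM with saline (difference 0.14, limma adjusted p = 0.231). In each of these genes the groups overlapped, and most FSH livers stood above the highest OVX liver for Sdhb and Sdhc.

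Promoters of OXPHOS genes are known to hold sites of the nuclear respiratory factor NRF1, of the ETS factor GABP (NRF2), of YY1 and of the estrogen-related receptors (ERR). The window from 250 bases before to 50 bases after the transcription start (RefSeq, GRCm38.p6) was found for 75 of the 99 members and searched on both strands. The NRF1 motif (GCGCA, any base, GCGC) was in 25.3% of the members' windows and in 4.60% of all 32851 windows. CCGGAAG (ETS) was in 24.0% and 8.86%, AANATGGCG (YY1) in 14.7% and 2.38%, and TNAAGGTCA (ERR) in 4.0% and 1.28%. At least 1 of the 4 motifs was in 54.7% of the members' windows and in 15.4% of all. These are matches of letters and say nothing of binding in these livers.

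The windows of 3 complex II genes and of Ndufaf4 are printed, with motifs in capitals, because they hold matches and show how these are arranged, and not as the members with the clearest differences. Sdhd (chr9:50603800-50604099, minus strand) holds the NRF1 motif at -79 to -70, the ETS motif at -46 to -40 and the ERR motif at 36 to 44, the last 2 on the opposite strand to the gene. Sdha (chr13:74350191-74350490, minus strand) holds the NRF1 motif 3 times, at -98, -55 and -10. Sdhb (chr4:140961021-140961320, plus strand) holds the ETS motif at 6 to 12. Ndufaf4 (chr4:24897833-24898132, plus strand) holds the NRF1 motif at -113 to -104.
Sdhd: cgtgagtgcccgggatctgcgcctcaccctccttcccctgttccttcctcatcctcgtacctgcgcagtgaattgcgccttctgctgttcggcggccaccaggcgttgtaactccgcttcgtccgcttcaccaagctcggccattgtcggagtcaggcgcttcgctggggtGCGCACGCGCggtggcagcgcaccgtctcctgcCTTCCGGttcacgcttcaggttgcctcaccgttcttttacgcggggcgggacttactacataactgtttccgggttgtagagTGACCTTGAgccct
Sdha: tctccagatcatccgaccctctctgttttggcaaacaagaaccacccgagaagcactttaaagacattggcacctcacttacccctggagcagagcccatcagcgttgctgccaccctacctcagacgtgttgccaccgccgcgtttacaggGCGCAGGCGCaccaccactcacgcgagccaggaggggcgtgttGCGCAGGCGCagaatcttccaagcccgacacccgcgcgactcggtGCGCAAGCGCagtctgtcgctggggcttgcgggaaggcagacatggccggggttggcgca
Sdhb: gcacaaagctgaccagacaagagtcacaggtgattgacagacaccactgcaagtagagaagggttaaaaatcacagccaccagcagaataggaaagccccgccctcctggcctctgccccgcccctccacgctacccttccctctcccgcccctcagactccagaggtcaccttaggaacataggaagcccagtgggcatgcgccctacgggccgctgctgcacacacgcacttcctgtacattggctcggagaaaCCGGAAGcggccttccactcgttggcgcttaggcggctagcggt
Ndufaf4: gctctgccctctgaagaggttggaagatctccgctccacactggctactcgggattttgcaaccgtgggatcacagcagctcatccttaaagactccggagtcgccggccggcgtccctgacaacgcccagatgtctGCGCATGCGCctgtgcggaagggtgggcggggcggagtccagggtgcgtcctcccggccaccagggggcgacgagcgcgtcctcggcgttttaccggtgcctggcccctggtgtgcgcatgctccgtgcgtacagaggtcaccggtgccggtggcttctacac
The windows of Ndufb8 and Ndufc2, which were also higher with FSH, held none of the 4 motifs. The window of Ndufs5 held the NRF1 motif at -98 to -89, and Ndufaf6 and Sdhc were not among the members with a window.

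Complex I takes electrons from NADH and is the largest respiratory enzyme. Its 8 assembly factors were at a low level and included 2 of the 6 genes called (25%, beside 6.19% of all genes called higher). Ndufaf4 (chr4:24898083-24905001, plus strand) had 26.8, 28.0, 41.7, 38.0 and 30.5 CPM with FSH and 19.8, 22.1 and 27.2 CPM as lowest, median and highest with saline. Only FSH1 fell below the highest OVX liver. The difference was 0.51 ± 0.13 (SE), with a limma adjusted p of 0.0218 and an exact permutation p of 0.00649.

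Ndufaf6 (chr4:11051045-11076205, minus strand), which acts early in the assembly of the enzyme, had 18.6, 19.5, 25.4, 21.1 and 22.9 CPM with FSH and 14.2, 15.9 and 19.1 CPM with saline. FSH1 again lay within the OVX range and the other FSH livers lay above it. The difference was 0.40 ± 0.11 (SE), with a limma adjusted p of 0.0308 and an exact permutation p of 0.00649. The other assembly factors had differences from 0.12 to 0.25, and none passed the adjusted threshold. Ndufaf4 was called in 9 of the 11 fits that left out a library and Ndufaf6 in 5.

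Among the accessory subunits, which surround the catalytic core, Ndufb8 of the membrane arm (chr19:44548572-44555440, minus strand) had 219.7, 204, 233, 222 and 190.3 CPM with FSH and 163, 174 and 189 CPM with saline. The groups did not overlap, although FSH6 was close to the highest OVX liver. The difference was 0.28 ± 0.077 (SE), with a limma adjusted p of 0.0315 and an exact permutation p of 0.00216. Ndufb8, Sdhd and Atp5c1 were the 3 members whose FSH values all lay above the OVX values (3.33%), beside 3.95% of all genes. Ndufb8 overlaps the predicted gene Gm20538 on the same strand.

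Ndufc2, also of the membrane arm (chr7:97400003-97407802, plus strand), had 142, 121, 177, 149 and 129 CPM with FSH and 101, 105 and 125 CPM with saline. Here FSH2 was the only FSH liver within the OVX range. The difference was 0.37 ± 0.10 (SE), with a limma adjusted p of 0.0326 and an exact permutation p of 0.0130. Ndufc2 overlaps the processed pseudogene Gm16053 on the same strand. Ndufb8 and Ndufc2 were each called in 4 of the 11 fits that left out a library.

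Ndufs5 had the largest difference of all members, and its call was lost when a near-identical copy was summed with it. The gene (chr4:123712710-123718202, minus strand) had 51.7, 45.4, 144, 125 and 112 CPM with FSH and 35.6, 45.6 and 64.0 CPM as lowest, median and highest with saline. FSH3, FSH4 and FSH6 stood far above every other liver, and FSH1 and FSH2 lay within the OVX range. The difference was 0.91 ± 0.27 (SE), with a limma adjusted p of 0.0444 and an exact permutation p of 0.0346, and it was called in 3 of the 11 fits that left out a library.

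The copy is BC002163, annotated as a processed pseudogene at chr16:42955631-42955949 (plus strand) within the span of Zbtb20, which matches the Ndufs5 transcript at 99.4% over 319 bases. It had 59.5, 49.6, 0.453, 0.323 and 1.23 CPM with FSH and 43.5, 52.6 and 57.8 CPM as lowest, median and highest with saline. The 3 livers high in Ndufs5 were thus those in which the copy was near 0, at 8, 5 and 14 reads, while the copy took between 42.8% and 56.8% of the summed CPM of the gene and the copy in each of the other 8 libraries. The first 150 coding bases of both are printed to show how little separates them, with the 2 bases that differ over all 318 coding bases compared in capitals.
Ndufs5: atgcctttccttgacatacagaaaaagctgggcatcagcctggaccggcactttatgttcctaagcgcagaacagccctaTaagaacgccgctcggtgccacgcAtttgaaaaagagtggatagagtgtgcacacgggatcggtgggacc
BC002163: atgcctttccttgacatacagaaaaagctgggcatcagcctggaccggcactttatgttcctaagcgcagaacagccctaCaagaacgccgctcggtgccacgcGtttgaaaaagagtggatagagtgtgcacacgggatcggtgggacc
Summed over both, the level was 118 ± 18.4 CPM with FSH (SD, n = 5) and 97.9 ± 13.8 CPM with saline (SD, n = 6). The difference of the sum was 0.27, with an exact permutation p of 0.0866 and a limma adjusted p of 0.179, and Ndufs5 was then no longer called. Whether the 3 livers differed from the others in how reads were assigned between the gene and its copy, or in genetic background at the copy, was not tested, and the values of Ndufs5 and BC002163 taken singly are uncertain to that extent.

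**Figure D4:**
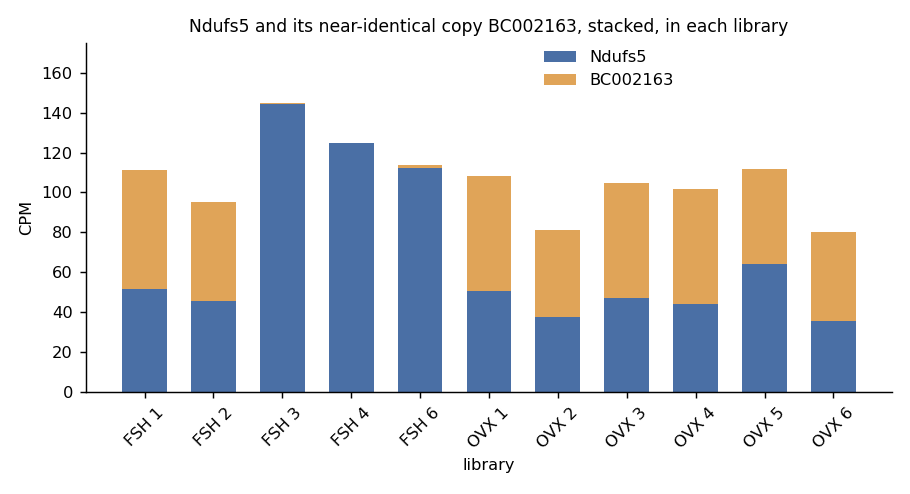
CPM of Ndufs5 (blue) and of its copy BC002163 (orange), stacked, in each library. The copy is near 0 in FSH3, FSH4 and FSH6 and takes about as many reads as Ndufs5 elsewhere, and the summed bars run from 80.2 to 145 CPM.

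Of the 99 members, 17 had at least 1 such copy in the table (at least 97% identity over at least 200 bases, overlapping genes at the same locus left out), and for 8 of them a copy reached a mean of 1 CPM. Atp5g2 had a mean of 61.7 CPM and its copy Gm10231 of 91.7 CPM, and Ndufb4 had 24.7 CPM and the pseudogene Ndufb4c, itself a member by name, 91.0 CPM. The levels of these genes are uncertain to that extent. With such copies summed, 5 of 89 members were called (5.62%, beside 6.18% of all genes called higher), and Ndufs5 was the only call lost.

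**Figure D5:**
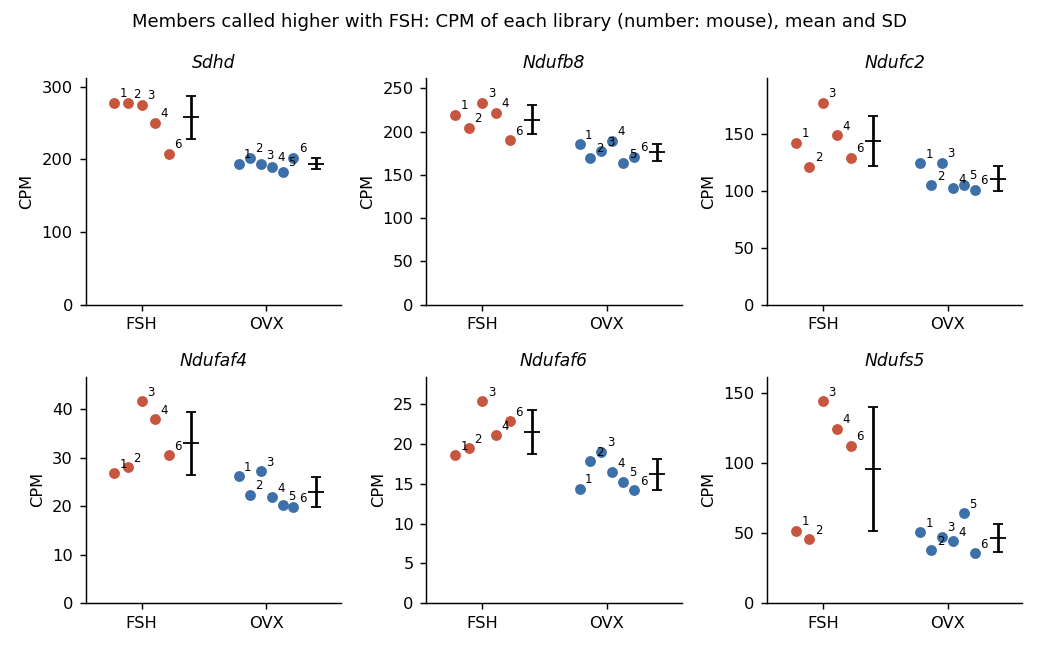
CPM of each library (points, with the number of the mouse), mean and SD for the 6 members higher with FSH; every axis starts at 0. The groups are apart in Sdhd and Ndufb8, 1 FSH liver lies within the OVX range in Ndufc2, Ndufaf4 and Ndufaf6, and 2 do so in Ndufs5.

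The core subunits of complex I, among them those that carry its flavin and iron-sulphur clusters, were not called. Ndufv2 had 178, 166, 187, 165 and 149.5 CPM with FSH and 130.1, 148 and 171 CPM with saline (difference 0.19, limma adjusted p = 0.201). Ndufs1 had 119.6, 131, 124, 119 and 94.2 CPM with FSH and 84.4, 103 and 113 CPM with saline (difference 0.21, limma adjusted p = 0.209). The groups overlapped in both, for Ndufs1 through FSH6 alone. The differences of the 7 core subunits ran from 0.03 to 0.21.

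In complex III, the 9 genes had differences from 0.05 to 0.20. Uqcrfs1, the Rieske iron-sulphur protein, had 287, 248, 294, 295 and 239 CPM with FSH and 210.1, 243 and 272 CPM with saline (difference 0.18, limma adjusted p = 0.241). Uqcr10, a small subunit, had a difference of 0.20 (limma adjusted p = 0.325) and Cyc1, which encodes cytochrome c1, of 0.07 (limma adjusted p = 0.691). The groups overlapped in all 3. Cycs, the mobile electron carrier cytochrome c, had 165, 139, 189, 174 and 139 CPM with FSH and 136, 153 and 192 CPM with saline. Its difference was 0.02, with an interval from -0.21 to 0.25, and its sign changed with the scaling.

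Complex IV holds several pairs of tissue isoforms, and the isoforms usual in liver carried nearly all of the signal. Cox4i1, Cox6a1, Cox6b1 and Cox8a had differences of 0.06, 0.01, 0.15 and 0.02, and those of Cox6a1 and Cox8a turned negative with median-of-ratios, upper-quartile and quantile scaling. Their counterparts Cox4i2, Cox6a2, Cox6b2, Cox8b and Cox8c stayed under a mean of 0.5 CPM and were not tested. Cox8c, Cox7b2 and Ndufa11b were at 0 reads in all 11 libraries, which allows up to 0.278 CPM in the shallowest. Cox6c2 and Ndufs6b were the other members below the filter.

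Cox7a1, the isoform of heart and skeletal muscle, was an exception in that it was measurable in liver. It had 5.32, 3.32, 5.89, 5.23 and 3.33 CPM with FSH and 1.75, 2.87 and 3.89 CPM with saline. FSH2 and FSH6 lay within the OVX range, and the difference of 0.61 ± 0.20 (SE) did not pass the threshold (limma adjusted p = 0.0592, exact permutation p = 0.0281). It was past the threshold with voom (0.74, adjusted p = 0.0432), with array weights (0.78, limma adjusted p = 0.0129) and without FSH2, FSH6 or OVX5 (differences of 0.71, 0.71 and 0.70). The skeletal muscle markers Acta1 and Myh4 were at 0 in all libraries, and the summed level of the 4 muscle markers was 0.295 to 0.906 CPM with FSH and 0.311 to 0.700 CPM with saline. Cox7a2, the isoform found in most tissues, had 189, 188, 216, 184 and 163 CPM with FSH and 134, 169 and 177 CPM with saline (difference 0.24, limma adjusted p = 0.146). Cox7a2l, which takes part in joining complexes III and IV, had a difference of 0.10 (limma adjusted p = 0.532). Ndufa4 and its paralog Ndufa4l2, a gene known to respond to hypoxia, had differences of 0.10 and 0.33, neither of them called.

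In complex V, the 17 genes had differences from 0.04 to 0.40. Atp5s, a low-level member named as a coupling factor, had 4.57, 4.06, 3.57, 3.68 and 3.15 CPM with FSH and 2.40, 2.70 and 3.43 CPM with saline (difference 0.40, limma adjusted p = 0.0675, exact permutation p = 0.00866). Only FSH6 lay within the OVX range, and Atp5s was called with no intensity trend, with array weights and without FSH6 or OVX5. The genes Atp5g1, Atp5g2 and Atp5g3 encode the same mature protein of the membrane ring. Atp5g1 had 307, 268, 309, 325 and 309 CPM with FSH and 217, 258 and 288 CPM with saline (difference 0.27, limma adjusted p = 0.0718, exact permutation p = 0.0152), so that FSH2 alone overlapped with saline. It was called with the correction for GC content and length (0.29, limma adjusted p = 0.0463), with array weights (0.28, limma adjusted p = 0.0371) and without OVX1 (0.31, limma adjusted p = 0.0470). Atp5g2 and Atp5g3 had differences of 0.04 and 0.19 (limma adjusted p = 0.834 and 0.304). Atp5c1, the gamma subunit of the central stalk, was named for its groups, which did not overlap (297 to 332 CPM with FSH, 274 to 288 CPM with saline), and it had a limma adjusted p of 0.145.

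Genes around the respiratory chain were followed in lists written by function. Of 44 tested assembly factors outside the members, 3 were higher (6.82%, beside 6.19% of all genes). In this list 1 was lower, beside 4.41% of all genes, and the median difference was 0.14. Sdhaf4, an assembly factor of succinate dehydrogenase, had 25.3, 22.6, 26.3, 22.2 and 18.6 CPM with FSH and 14.4, 16.0 and 18.1 CPM with saline (difference 0.51 ± 0.10 SE, limma adjusted p = 0.00531). As with Sdhd, all FSH livers were above all OVX livers and FSH6 was the lowest of them. Cmc1 and Coa6, which act in the assembly of complex IV, were higher by 0.43 (limma adjusted p = 0.0138) and 0.37 (limma adjusted p = 0.0240).

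Sco2, a copper chaperone for complex IV, was the gene that went down. It had 27.2, 34.2, 51.4, 59.5 and 51.4 CPM with FSH and 78.0, 105 and 159 CPM as lowest, median and highest with saline. The groups were far apart, and the difference was -1.27 ± 0.20 (SE, limma adjusted p = 0.00132). Sco2 (chr15:89371637-89373846, minus strand) overlaps Tymp on the same strand, and Tymp, which encodes thymidine phosphorylase, differed by -1.19 (limma adjusted p = 0.000424), so reads of these genes may not have been told apart.

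Of 25 tested regulators of mitochondrial biogenesis, 5 were higher at an unadjusted p under 0.05 and 0 lower, with a median of 0.08. By limma, 2 were higher (8%, beside 6.19% of all genes) and 0 lower, and by edgeR also 2 and 0. The 2 were Polg2, the accessory subunit of the mitochondrial DNA polymerase (difference 0.54, limma adjusted p = 0.00479), and Tfam (difference 0.29, limma adjusted p = 0.0382). Tfam packages mitochondrial DNA and takes part in its transcription. Of 19 genes of the TCA cycle and pyruvate dehydrogenase, 7 were higher at an unadjusted p under 0.05 and 0 lower, with a median of 0.14. By limma, 3 were higher (15.8%, beside 6.19% of all genes) and 0 lower, and by edgeR also 3 and 0. Dlat and Pdhb of pyruvate dehydrogenase differed by 0.73 and 0.35 (limma adjusted p = 0.00534 and 0.0361), and Cs, citrate synthase, by 0.49 (limma adjusted p = 0.00940).

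Of 20 carriers and membrane proteins, 5 were higher at an unadjusted p under 0.05 and 0 lower, with a median of 0.11. In limma's test 2 were higher (10%, beside 6.19% of all genes), in edgeR's 1, and 0 were lower in either. Vdac1, the main channel of the outer membrane, had 314, 284, 299, 283 and 237 CPM with FSH and 197, 208 and 215 CPM with saline (difference 0.44, limma adjusted p = 0.00261). Its groups did not overlap. Vdac2 differed by 0.36 (limma adjusted p = 0.0346). In Sdhd and in each of the 10 genes called higher in these lists, the lowest of the FSH values was that of FSH6.

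The markers of other cell types gave few differences. Of the 5 cholangiocyte markers, Krt7 was higher, and at an unadjusted p under 0.05, 1 marker was higher and 1 lower. Their summed level was 47.6 to 69.4 CPM with FSH and 38.3 to 55.7 CPM with saline. Of the hepatocyte markers, Hnf4a was lower, and of the 6 endothelial markers, Lyve1 was lower. The 6 Kupffer cell and macrophage markers summed to 93.3 to 257 CPM with FSH and 153 to 303 CPM with saline, and the 5 erythroid markers to 464 to 790.0 and 425 to 1009 CPM, with 0 called in either list by limma or edgeR (2 and 0 lower at an unadjusted p under 0.05). The brown adipocyte marker Ucp1 was at 0 in all libraries. In whole liver, fewer cells of a type and less RNA per cell cannot be told apart, and the part of cell composition in the members' levels was not tested.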

How the data were processed

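Liver RNA of 11 mice was sequenced as paired reads from NEBNext Ultra libraries; the labels also name a papain digest of the liver before extraction. According to the submitters' processing notes, FastQC 0.11.2, Trim Galore 0.3.3, cutadapt, STAR and RSEM were used with the mm10 build; the annotation release and the use of strand are not given in the sources used here. The authors deposited CPM values (reads per gene scaled to 1000000 per library), and 100.0% of the deposited values were whole multiples of 1 read within 0.02 reads, so the reads could be recovered.

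Identifiers, without version, were matched to GENCODE M21 (GRCm38), which named 35555 of 36788 rows. Positions, transcript lengths (the median over a gene's transcripts) and overlaps come from it. For genes that averaged 0.5 CPM or more, the values log2(CPM + 0.5) were compared in R 4.3.3 by limma 3.58.1 (eBayes with an intensity trend, Benjamini-Hochberg over all 12733 genes), and named genes with an exact permutation test over 462 splits. The pseudocount understates changes of low genes. Near-identical copies were found with BLAST+ 2.17.0. The functions were tested on simulated data.

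The members and lists were chosen with earlier results of these data known. Named were all called members, the 2 of smallest p in each complex, all Sdh genes, Cyc1, Cycs, the Cox and Atp5g paralogs, Ndufa4 and Ndufa4l2, and up to 4 called genes of each neighbouring list; Ndufa1, Atp5c1, Uqcrq and Tymp were named after their values were seen. The alternatives were other scalings, pseudocounts and filters, no trend, array weights, voom, a replicate block, a correction for GC content and length, leaving out each library and, added after seeing the data, edgeR 4.0.16, summed copies and 3 libraries left out together. Each library was taken as 1 mouse, and p-values measure the spread between these libraries. No 2 libraries of a group agreed within sampling noise (lowest mean chi-square per gene 11.2).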

Additional observations from a re-analysis of the deposited data

Results flagged for a closer look

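In 72 groups tested for a library that stands apart (the values of named members and complex means, within FSH or OVX), 2 were marked, where chance marks about 1 in 20. Both concerned the liver of FSH6. For Ndufs1 it had 94.2 CPM, beside 119 to 131 CPM in the other FSH livers, with a gap of 0.72 of the group's range on the log2 scale. For the mean of complex II it stood at 0.02 (log2), beside 0.14 to 0.17, with a gap of 0.812 of the range. Without FSH6, 9 members were called in place of 6 (10%, beside 8.16% of all genes called higher, in place of 6.67% beside 6.19%).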

How the results depend on the processing

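The median difference of the members stayed above 0 in all 27 alternatives (0.07 to 0.18), and 0 members were called lower in any. The number higher (6) was 3 with median-of-ratios scaling (3.33%, beside 5.72% of all genes called higher), 10 with array weights (11.1%, beside 8.67%) and 2 with the replicate block and the correction for GC content and length together (2.22%, beside 5.27%); leaving out single libraries gave 1 to 9, with only Sdhd called without FSH3 or FSH4 and 2 members without OVX6. Without FSH2, OVX2 and OVX6 together, 2 members, 5 genes of the neighbouring lists (11 in the main result) and 844 of all genes were called. Leaving out single libraries gave 804 (without FSH1) to 1659 for all genes and 7 to 15 for the neighbouring lists. Of the 27 alternatives, Sdhd was called in 26, Ndufaf4 in 23, Ndufaf6 in 18, Ndufb8 in 14, and Ndufc2 and Ndufs5 in 13 each; why calls were lost was not tested.

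The mouse numbers shared by the groups did not pair the libraries: the correlations of same-numbered deviations were 0.065, 0.356, 0.019, 0.137 and -0.066, and only number 2 correlated best with its own. With the replicate block, 8 members were higher (8.89%, beside 4.94% of all genes), 1210 genes were called in either direction, and OVX5 had no partner. Ndufb8 was then not called (0.26, limma adjusted p = 0.0673), Ndufs4, Cox7b and Cox7a1 (0.70, limma adjusted p = 0.0432) were, and Ndufs5 passed the fold threshold (1.01). With the block and the GC and length correction, 7 genes of the neighbouring lists were called, and Sdhd (0.31, limma adjusted p = 0.0694) was not. Ndufaf4 (0.40, limma adjusted p = 0.0991) and Ndufaf6 (0.30, limma adjusted p = 0.0720) were then not called either. The same held for Ndufb8 (0.21, limma adjusted p = 0.0976) and Ndufc2 (0.22, limma adjusted p = 0.142).

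Differences near 0 turned negative. Of the 90 members, 1 was below 0 in the main result, 5 with median-of-ratios scaling and in edgeR, 4 with upper-quartile scaling, 6 with quantile normalization, 15 with the GC and length correction, with or without the block, and 0 to 11 over single left-out libraries; values are given only for members described in the report. With median-of-ratios scaling Cycs was -0.00597, Cox6a1 -0.0143 and Cox8a -0.0110, with upper-quartile scaling Cox6a1 -0.00516 and Cox8a -0.00190, and with quantile normalization Cycs -0.00972, Cox6a1 -0.0150 and Cox8a -0.0180. With the GC and length correction Cycs was -0.0326, Cox6a1 -0.0317, Cox8a -0.0326, Atp5g2 -0.0204 and Ndufa4 -0.0464, and with the block as well Cox6a1 -0.0309, Cox7a2l -0.0439, Cox8a -0.0142, Atp5g2 -0.0741 and Ndufa4 -0.0573. In edgeR Cycs was -0.00596, Cox6a1 -0.0180 and Cox8a -0.00728, and without the 3 libraries Cox6a1 was -0.0289, Cox8a -0.0110 and Atp5g2 -0.00381. Leaving out single libraries gave -0.0403 to 0.0774 for Cycs, -0.0453 to 0.0771 for Cox6a1 and -0.0381 to 0.115 for Cox8a.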
